A study of Mus musculus with 4 samples.

Results

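The genes of Polycomb repressive complex 2 (PRC2) were followed in mouse embryonic stem (ES) cells and neural progenitors with and without the de novo DNA methyltransferases. The set was fixed by symbol as 10 genes out of 23235 in the deposited expression table, and all 10 were found under their own symbols: the catalytic subunits Ezh1 and Ezh2, the core subunits Eed and Suz12, the histone-binding subunits Rbbp4 and Rbbp7, and the accessory subunits Mtf2, Phf19, Jarid2 and Aebp2. RNA was sequenced from 4 cultures, 1 library each. WT_ES was from wild-type ES cells on the J1 background (strain 129S4/SvJae, day 0), kept in serum with leukemia inhibitory factor (LIF), and DKO_ES from ES cells doubly deficient for Dnmt3a and Dnmt3b under the same labels for strain and day. WT_NP and DKO_NP were taken from these lines at day 6, after 4 days of embryoid body culture and 2 more with retinoic acid. Feeder cells were used in earlier passages of the ES cells and later removed by passaging. The labels do not say how the deletions were made or how many clones were used.

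PRC2 places methyl groups on lysine 27 of histone H3, a mark that keeps developmental genes silent in ES cells. EZH2 or its paralog EZH1 carries the SET domain that does this, and it works only when bound to EED, which reads the finished mark, and SUZ12, which holds the complex together. RBBP4 and RBBP7 bind histones and also belong to other chromatin complexes. The Polycomb-like proteins MTF2 and PHF19 define the form called PRC2.1, which is drawn to CpG-rich DNA without methylation, whereas JARID2 and AEBP2 define PRC2.2, which reads the ubiquitin placed on histone H2A by PRC1.

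Values are FPKM, fragments scaled by transcript length and by library size, as deposited unless a fold is given. Folds are between libraries after median scaling, in which a library is divided by its median ratio to the geometric mean of the 4 (factors 1.32 for WT_ES, 1.25 for DKO_ES, 0.670 for WT_NP and 0.907 for DKO_NP). This matters because the median gene, as deposited, differed by a log2 ratio of -0.82 between WT_NP and WT_ES, -0.43 between DKO_NP and DKO_ES, -0.06 between DKO_ES and WT_ES and 0.39 between DKO_NP and WT_NP; directions are therefore relative to the median gene. With 1 library per group there is no replicate spread and no test. The bracketed 95% intervals are exact (Clopper-Pearson) intervals of approximate read numbers and cover counting error only. A gene was counted as 2-fold higher or lower at a log2 ratio of 1 or more in size, computed on scaled FPKM plus 1, where at least 1 of both libraries reached 1 FPKM. This scale understates differences of genes with low values, such as Phf19. In bulk RNA, fewer cells of a type and less RNA per cell cannot be told apart.

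The promoters of the 10 genes held many CpG, the kind of site that DNA methyltransferases act on. Whether these promoters are methylated in any of the 4 cultures was not measured here. In the RefSeq windows of 300 bases (GRCm38.p6, 250 before to 50 after the annotated start), the window with the most CpG of each member held between 17 and 41, with a median of 30.5. Over 27025 genes the median of the same measure was 8, and 33.9% of genes reached 17, the lowest value among the members. The windows were also searched on both strands for the E2F-type motif in its 4 spellings TTTGGCGC, TTTCCCGC, TTTGCCGC and TTTCGCGC, since E2F factors are known to act on Ezh2 and Eed in dividing cells. Each spelling contains a CpG, and the members held more CpG than most genes. A share over all genes is therefore not matched for CpG, and enrichment among the members was not tested. The motif was found in 2.60% of all genes with a window, and it was not found in Eed. Among the 10 members it was found in 3, Ezh2, Suz12 and Phf19. The 3 windows and that of Ezh1, the paralog of Ezh2, in which the letters were not found, are shown 5′ to 3′ on the strand of the gene, with the motif in capitals; in Phf19 it lies on the opposite strand. They lie at chr6:47594981-47595280 (minus strand, Ezh2), chr11:79992856-79993155 (plus strand, Suz12), chr2:34913927-34914226 (minus strand, Phf19) and chr11:101226414-101226713 (minus strand, Ezh1).
Ezh2: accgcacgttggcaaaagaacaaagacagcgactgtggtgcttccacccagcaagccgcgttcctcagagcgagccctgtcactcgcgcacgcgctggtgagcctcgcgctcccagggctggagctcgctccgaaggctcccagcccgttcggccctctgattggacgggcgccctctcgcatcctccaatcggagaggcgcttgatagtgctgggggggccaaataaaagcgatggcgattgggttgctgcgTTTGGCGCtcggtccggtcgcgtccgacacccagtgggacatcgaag
Suz12: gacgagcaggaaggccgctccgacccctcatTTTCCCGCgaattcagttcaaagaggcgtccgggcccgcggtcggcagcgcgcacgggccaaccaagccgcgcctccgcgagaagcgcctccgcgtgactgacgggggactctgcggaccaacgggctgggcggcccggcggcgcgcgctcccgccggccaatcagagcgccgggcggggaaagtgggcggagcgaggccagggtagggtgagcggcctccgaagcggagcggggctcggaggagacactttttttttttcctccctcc
Phf19: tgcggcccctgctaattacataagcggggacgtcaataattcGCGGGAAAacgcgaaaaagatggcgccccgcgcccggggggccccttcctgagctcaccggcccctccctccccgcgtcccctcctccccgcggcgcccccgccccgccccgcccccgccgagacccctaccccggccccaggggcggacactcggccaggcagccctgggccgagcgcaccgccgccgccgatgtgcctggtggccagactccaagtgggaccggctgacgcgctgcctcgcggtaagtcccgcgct
Ezh1: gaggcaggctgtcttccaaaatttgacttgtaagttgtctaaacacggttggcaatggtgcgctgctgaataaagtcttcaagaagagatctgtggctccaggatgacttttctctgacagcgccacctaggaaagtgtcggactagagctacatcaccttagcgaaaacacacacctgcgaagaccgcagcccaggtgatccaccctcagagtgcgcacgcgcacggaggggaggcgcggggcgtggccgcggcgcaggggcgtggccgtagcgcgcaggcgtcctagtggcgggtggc
The motif takes bases 254 to 261 of the Ezh2 window, where base 251 is the first transcribed base, bases 32 to 39 of the Suz12 window and bases 43 to 50 of the Phf19 window. A match describes letters only, and binding was not measured here.

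Most genes of the complex were well expressed in ES cells, while Phf19 and Ezh1 stood lower. In WT_ES the members ranged from 4.67 FPKM for Phf19 to 262 FPKM for Rbbp7, with a median of 104 FPKM, and the median member stood at percentile 90.3 of the 13125 genes at or above 1 FPKM. Phf19 stood at percentile 22.9 and Ezh1 at percentile 57.7 of these genes. The member medians were 87.8 FPKM in DKO_ES, 27.6 in WT_NP and 44.8 in DKO_NP. Rbbp7 was the highest member in each of the 4 libraries, Ezh1 came 9th and Phf19 10th. Between these ends the order differed by cell type: Mtf2, Jarid2, Eed, Suz12 and Ezh2 were ranked 3, 4, 5, 6 and 7 in WT_ES, while in WT_NP Ezh2 was 3rd and Eed 8th. Which neighbours in this order differ beyond replicate spread could not be assessed.

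**Figure D1:**
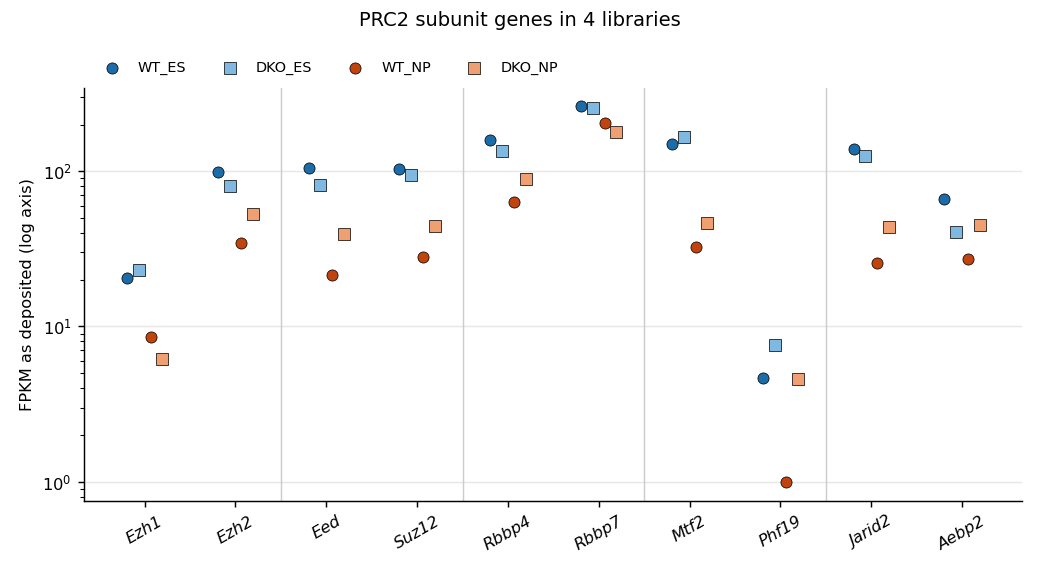
FPKM as deposited (log axis) of the 10 PRC2 subunit genes, with 1 point per library and vertical lines between the roles. Ezh2, Eed and Suz12 lie close together in WT_ES, between 99.4 and 105.5 FPKM, and apart in WT_NP, between 21.4 and 34.6 FPKM; Phf19 is the lowest gene in every library.

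Between wild-type libraries most PRC2 genes were lower in neural progenitors than in ES cells, and the folds were widest for Jarid2, Eed, Phf19 and Mtf2. Of 10 members, 9 had a log2 ratio below 0 in WT_NP against WT_ES, 3 were at least 2-fold lower (Jarid2, Eed and Mtf2) and none was 2-fold higher, with a median of -0.71. Phf19 was 2.40-fold lower without a pseudocount (1.93 to 2.99), and its log2 ratio was -0.88 with the pseudocount of 1 FPKM and -1.21 with 0.1. Over 14086 genes, 11.3% passed 2-fold downward and 16.2% upward, and the median was 0.01. Of all genes past 2-fold, 58.9% were higher after scaling and 13.3% as deposited. As deposited, all 10 members were below 0 and 9 were at least 2-fold lower, the exception being Rbbp7. Over the 14086 genes, 5876 were at least 2-fold lower as deposited, and the median was -0.82.

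In knockout cells the same step gave a smaller median difference. Of 10 members, 9 were below 0 in DKO_NP against DKO_ES and 3 were at least 2-fold lower, namely Ezh1, Mtf2 and Jarid2, with a median of -0.41. Under upper-quartile scaling Jarid2 was at -0.95 and the count was 2. Over 14050 genes, 11.2% passed 2-fold downward and 11.8% upward, and the median was -0.03; 51.3% of those past 2-fold were higher, and 26.4% as deposited. As deposited 5 members were at least 2-fold lower, Eed and Suz12 in addition to these. Over the 14050 genes, 3067 were at least 2-fold lower as deposited, and the median was -0.43.

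**Figure D2:**
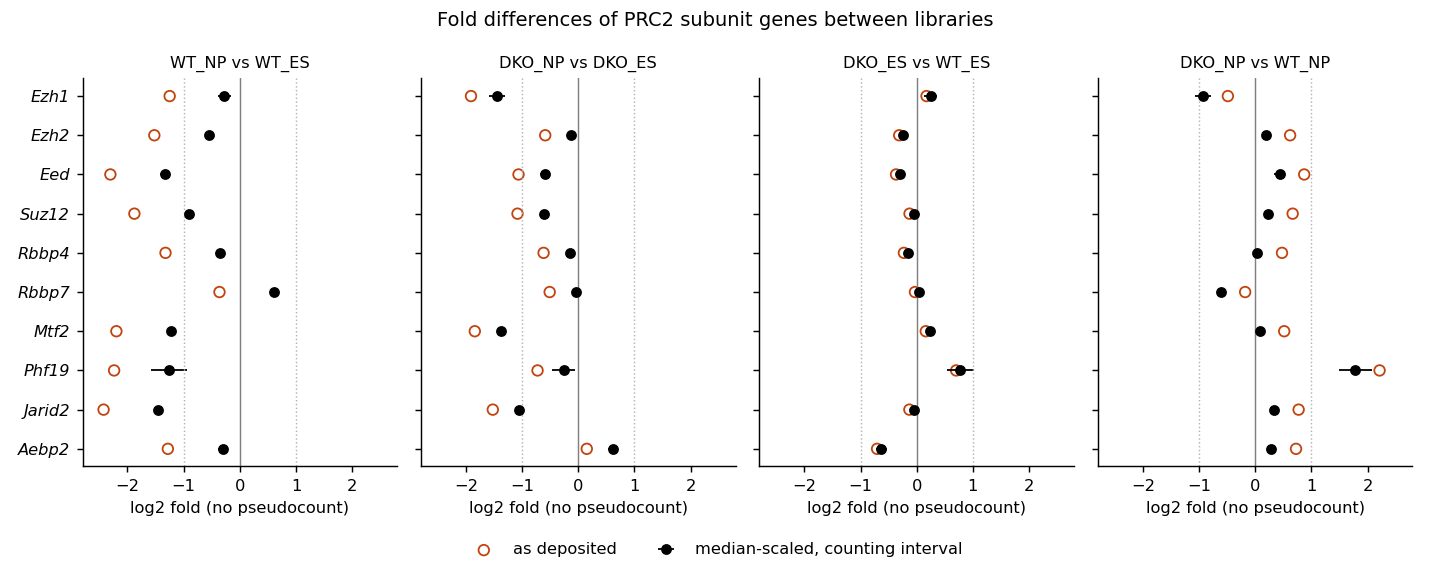
log2 folds of the 10 members in the 4 comparisons, without a pseudocount; filled points are median-scaled with their counting intervals (narrower than the symbol for most genes), open circles are as deposited, and dotted lines mark 2-fold. Jarid2 and Mtf2 lie left of the 2-fold line in both differentiation panels after scaling, Ezh1 does so in the knockout panel, and Phf19 lies right of it in DKO_NP against WT_NP.

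Ezh1 and Ezh2 encode alternative catalytic subunits; EZH2 is the form of dividing cells, while EZH1 is the weaker methyltransferase and is prominent in cells that have stopped dividing. Ezh2 measured 99.4 FPKM in WT_ES against 80.1 in DKO_ES, and 34.6 in WT_NP against 53.3 in DKO_NP. Both ES libraries were above both progenitor libraries as deposited. After scaling it was 1.46-fold lower in WT_NP than in WT_ES (1.39 to 1.53) and 1.09-fold lower in DKO_NP than in DKO_ES (1.04 to 1.14). Ezh2 was 1.18-fold lower in DKO_ES than in WT_ES (1.12 to 1.24) and 1.14-fold higher in DKO_NP than in WT_NP (1.08 to 1.19), none of which reached 2-fold.

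Ezh1 measured 20.4 FPKM in WT_ES against 23.1 in DKO_ES, and 8.60 in WT_NP against 6.14 in DKO_NP. The highest value was in the knockout ES library and the lowest in the knockout progenitors. Ezh1 was 2.72-fold lower in DKO_NP than in DKO_ES (a fold of 0.367, 0.334 to 0.403), against 1.21-fold between the wild-type libraries (1.11 to 1.31). In DKO_NP it was 1.90-fold lower than in WT_NP (1.72 to 2.09), and in DKO_ES 1.19-fold higher than in WT_ES (1.10 to 1.29). Its difference of differentiation log2 ratios, DKO minus WT, was -1.07, and it was the single member at 2-fold in that measure, although the value was -0.59 as deposited. Of 14713 genes, 8.82% passed 2-fold downward in this measure and 4.32% upward (32.9% of those past it were higher, and 71.0% as deposited), and no member was 2-fold higher after scaling.

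The balance between the catalytic genes can be read within a library, where scaling plays no part. Ezh1 made up 17.04% of the summed FPKM of both genes in WT_ES (16.1% to 18.0%), 22.4% in DKO_ES (21.3% to 23.5%), 19.9% in WT_NP (18.9% to 20.9%) and 10.3% in DKO_NP (9.56% to 11.1%). Ezh2 was thus the major transcript in all 4 libraries, at 3.47 to 8.68 times the FPKM of Ezh1. The share of Ezh1 was higher in the progenitor library than in the ES library of wild-type cells and lower in that of knockout cells, beyond counting error in both.

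Eed and Suz12, the partners without which EZH2 is inactive, stood level with Ezh2 in ES cells. Eed measured 105.5 FPKM in WT_ES against 81.8 in DKO_ES, and 21.4 in WT_NP against 39.1 in DKO_NP. It was 2.51-fold lower in WT_NP than in WT_ES (2.36 to 2.67) and 1.52-fold lower in DKO_NP than in DKO_ES (1.43 to 1.61). Suz12 measured 102.6 FPKM in WT_ES against 93.9 in DKO_ES, and 27.9 in WT_NP against 44.4 in DKO_NP, 1.87-fold (1.80 to 1.94) and 1.54-fold (1.48 to 1.60) lower in the progenitors of the respective genotypes. The highest of Ezh2, Eed and Suz12 was 1.06 times the lowest in WT_ES and 1.17 times in DKO_ES, but 1.62 times in WT_NP and 1.36 times in DKO_NP. In both progenitor libraries Ezh2 was the highest of these and Eed the lowest, with 0.617 Eed per Ezh2 in WT_NP and 0.734 in DKO_NP, in FPKM.

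Rbbp4 and Rbbp7 encode close relatives that bind histones for PRC2 and for the NuRD, Sin3 and, in the case of RBBP4, CAF-1 complexes. Rbbp7 measured 262 FPKM in WT_ES against 256 in DKO_ES, and 204 in WT_NP against 180.1 in DKO_NP. It varied least of all members as deposited. Relative to the median gene it was 1.53-fold above WT_ES in WT_NP (1.49 to 1.58), the single member above 0 in that comparison, but its deposited log2 ratio was -0.36. In DKO_NP against DKO_ES its fold was 0.969 (0.938 to 1.0005), which includes no difference. Rbbp4 measured 159.0 FPKM in WT_ES against 135.8 in DKO_ES, and 63.6 in WT_NP against 88.5 in DKO_NP, and was 1.27-fold (1.24 to 1.31) and 1.11-fold (1.08 to 1.15) lower in progenitors. Rbbp7 made up 62.2% of the FPKM of the pair in WT_ES (61.5% to 63.0%), 65.4% in DKO_ES (64.6% to 66.1%), 76.2% in WT_NP (75.7% to 76.7%) and 67.0% in DKO_NP (66.4% to 67.7%). A processed pseudogene of Rbbp7, Gm6382, matches 942 bases of its transcript at 97.1% identity, so some reads of Rbbp7 could belong to it. Transcripts of Sync and of the long noncoding RNA Gm26722 share 521 and 799 bases with Rbbp4 at 100% identity, and those of Tmed5 share 396 with Mtf2, so reads there cannot be assigned with certainty.

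Other subunits of the complexes that share RBBP4 and RBBP7 were listed for comparison. Of 13 genes of NuRD, Sin3 and CAF-1, 1 was at least 2-fold lower in WT_NP than in WT_ES (Mta3, log2 ratio -1.19). None was higher, and the median log2 ratio was -0.22. In DKO_NP against DKO_ES none of 13 reached 2-fold and the median was 0.13. Over all genes 11.3% and 11.2% passed 2-fold downward in these comparisons, and 16.2% and 11.8% upward. The list median was -0.13 in DKO_ES against WT_ES and 0.23 in DKO_NP against WT_NP, beside -0.05 and 0.20 for PRC2. Sin3b alone was 2-fold higher in DKO_NP against WT_NP, beside 4.76% of all genes. As deposited the list medians in differentiation were -1.18 and -0.33, and 8 and 2 of the genes were 2-fold lower. Over all genes 5876 of 14086 and 3067 of 14050 were 2-fold lower as deposited.

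The Polycomb-like genes Mtf2 and Phf19 differed in level by more than an order of magnitude. Mtf2 measured 148.7 FPKM in WT_ES against 166 in DKO_ES, and 32.4 in WT_NP against 46.4 in DKO_NP. Both ES libraries were far above both progenitor libraries, and Mtf2 was 2.33-fold lower in WT_NP (2.24 to 2.43) and 2.60-fold lower in DKO_NP (2.50 to 2.71) than in the ES cells of the same genotype. Phf19 measured 4.67 FPKM in WT_ES against 7.60 in DKO_ES, and 0.990 in WT_NP against 4.60 in DKO_NP, with approximate reads of 234, 415, 131 and 419. It was higher in the knockout library of both cell types, by 1.71-fold in ES cells (1.46 to 2.02) and by 3.43-fold in progenitors (2.81 to 4.20). Phf19 made up 3.05% of the FPKM of the pair in WT_ES (2.67% to 3.46%), 4.37% in DKO_ES (3.96% to 4.80%), 2.96% in WT_NP (2.48% to 3.51%) and 9.02% in DKO_NP (8.20% to 9.89%).

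Jarid2 and Aebp2, the PRC2.2 genes, differed in pattern. Jarid2 measured 138 FPKM in WT_ES against 126 in DKO_ES, and 25.7 in WT_NP against 43.98 in DKO_NP. It was 2.73-fold lower in WT_NP than in WT_ES (2.64 to 2.83), the largest such difference among the members after scaling, and 2.08-fold lower in DKO_NP than in DKO_ES (2.01 to 2.15). Aebp2, a zinc finger protein, measured 66.4 FPKM in WT_ES against 40.7 in DKO_ES, and 27.3 in WT_NP against 45.2 in DKO_NP. The knockout library was the lower of the ES pair and the higher of the progenitor pair. Aebp2 was 1.24-fold lower in WT_NP than in WT_ES (1.17 to 1.31) but 1.53-fold higher in DKO_NP than in DKO_ES (1.44 to 1.63), and its difference of log2 ratios was 0.90 after scaling and 1.40 as deposited. Aebp2 made up 32.4% of the FPKM of Jarid2 and Aebp2 in WT_ES (31.4% to 33.5%), 24.4% in DKO_ES (23.4% to 25.4%), 51.5% in WT_NP (50.3% to 52.7%) and 50.7% in DKO_NP (49.6% to 51.8%).

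**Figure D3:**
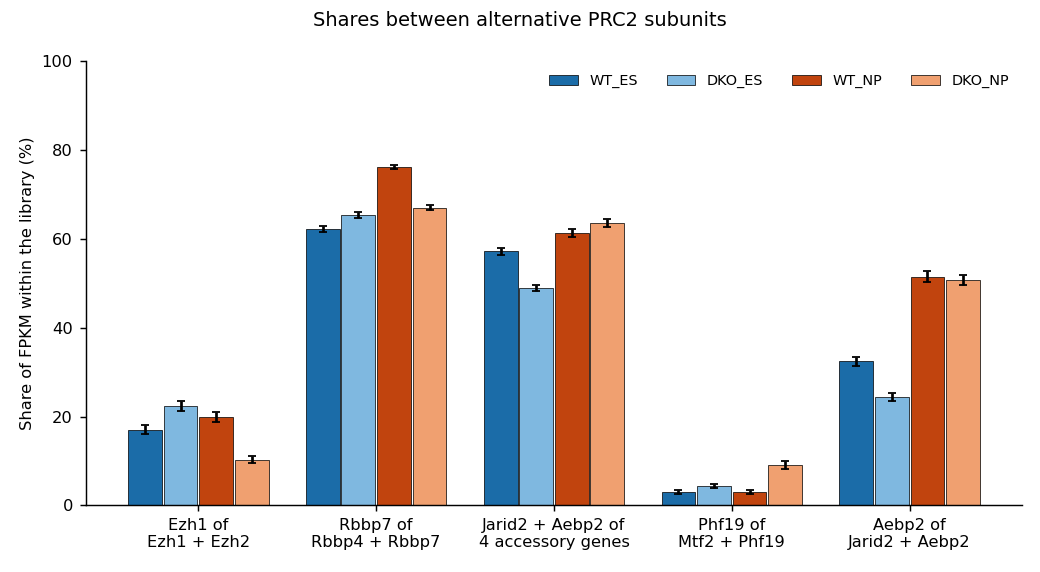
Share of FPKM within each library (percent) taken by 1 of the alternative PRC2 subunits, with 95% counting intervals as error bars. The share of Ezh1 is lowest in DKO_NP at 10.3%, that of Rbbp7 is highest in WT_NP at 76.2%, and Aebp2 takes 51.5% and 50.7% of the Jarid2 and Aebp2 sum in the progenitor libraries against 32.4% and 24.4% in the ES libraries.

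The PRC2.2 genes together took 57.1% of the FPKM of the 4 accessory genes in WT_ES (56.4% to 57.9%), 49.0% in DKO_ES (48.2% to 49.7%), 61.3% in WT_NP (60.4% to 62.3%) and 63.6% in DKO_NP (62.7% to 64.5%). Most of each sum came from Jarid2 and Mtf2 in ES cells, where Mtf2 stood at 1.08 times Jarid2 in WT_ES and 1.32 times in DKO_ES. In progenitors that ratio was 1.26 in WT_NP and 1.06 in DKO_NP, and Aebp2 stood level with Jarid2 (1.06 and 1.03 times).

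Before differentiation the comparison of genotypes gave no member past 2-fold, and few genes of any kind passed it. In DKO_ES against WT_ES no member reached 2-fold in either direction, the median log2 ratio was -0.05 and the members lay between -0.61 and 0.64, where 2.56% of 13596 genes passed 2-fold upward and 1.15% downward. The ends of that range were Aebp2, 1.55-fold lower (1.45 to 1.65), and Phf19. Aebp2 stood at percentile 3.86 of all genes in this comparison and Phf19 at percentile 94.0. The targeted genes had lower values in both knockout libraries: Dnmt3a measured 12.3 FPKM in DKO_ES against 35.3 in WT_ES, and 4.14 in DKO_NP against 17.2 in WT_NP. Dnmt3b measured 13.9 against 140.3 and 5.22 against 9.98 FPKM. The labels do not say which exons are deleted, so these totals may include reads of a remaining transcript.

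After differentiation 8 of 10 members were higher in DKO_NP than in WT_NP and Ezh1 and Rbbp7 were lower, with a median log2 ratio of 0.20. Phf19 alone was at least 2-fold higher and none was 2-fold lower, against 4.76% and 7.99% of 13601 genes (37.3% of those past 2-fold were higher, and 72.2% as deposited). Eed was 1.35-fold (1.27 to 1.45), Jarid2 1.26-fold (1.21 to 1.31), Aebp2 1.22-fold (1.16 to 1.29) and Suz12 1.17-fold (1.13 to 1.22) higher. Rbbp7 was 1.53-fold lower (1.49 to 1.57). Under upper-quartile scaling the values of Rbbp4 and Mtf2, which were 0.04 and 0.08 after median scaling, changed sign. The comparisons of genotype and of differentiation share their libraries, so their values are not independent.

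**Figure D4:**
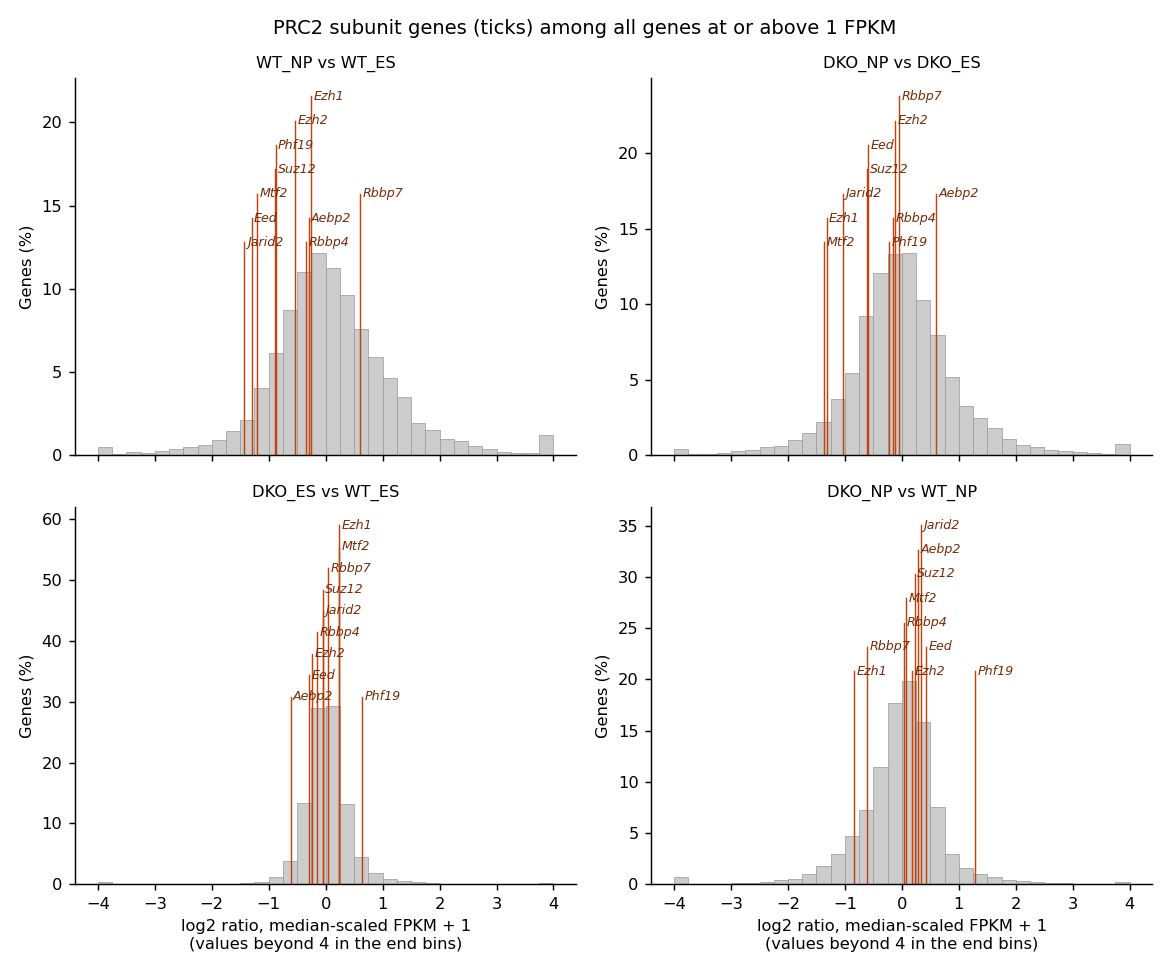
Distribution of log2 ratios (scaled FPKM plus 1) of all genes that reached 1 FPKM in at least 1 of both libraries, as percent of genes in bins, with a labelled line for each PRC2 gene whose height carries no value. In WT_NP against WT_ES the members lie from -1.43 for Jarid2 to 0.61 for Rbbp7, and in DKO_ES against WT_ES from -0.61 for Aebp2 to 0.64 for Phf19.

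The progenitor libraries differed in the cell types whose markers they held, and these values go with each progenitor comparison above. Summed over 7 pluripotency markers the FPKM were 7395 in WT_ES against 8240.0 in DKO_ES, and 92.7 in WT_NP against 405 in DKO_NP, and over 7 neural progenitor markers 25.6, 32.0, 58.0 and 204. These sums are as deposited, and Dppa5a gave most of the progenitor sums for pluripotency (56.9 FPKM in WT_NP and 266 in DKO_NP). After scaling the pluripotency markers Pou5f1 and Tdgf1 did not reach 2-fold in DKO_NP against WT_NP, and the other 5 were higher. In WT_NP the neural markers with the highest ratios to WT_ES were Irx3, at 14.1 FPKM against 0.682, and Zic1, at 3.55 against 0.141, and those with the lowest were Sox1, at 4.33 against 3.15, and Nes, at 19.3 against 16.9. In DKO_NP these 4 genes measured 26.2, 17.96, 18.3 and 60.8 FPKM. WT_NP also held transcripts of other cells: 6 endoderm markers summed to 118 FPKM there and to 21.8 in DKO_NP, 6 mesoderm markers to 69.5 and 13.96, and 5 markers of primitive red blood cells to 771 and 74.7. Among the endoderm markers Sox17 differed from this, at 4.44 FPKM in WT_NP and 5.82 in DKO_NP. In both ES libraries each of these 3 sums lay below 4 FPKM, with the globin genes Hba-x and Hbb-y, named after their values were seen, listed at 0. Markers of fibroblasts or feeders summed to 63.0 FPKM in both wild-type libraries, to 17.004 in DKO_ES and to 35.3 in DKO_NP. The equal wild-type sums differed in make-up, with Tagln the largest part in WT_ES (40.5 FPKM) and Col3a1 in WT_NP (21.5 FPKM). The ES sums of these markers go with the comparison of DKO_ES and WT_ES above. The part of this mixture in the PRC2 values was not tested.

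In both differentiation comparisons, though less so between genotypes, genes of the dividing cell had medians close to those of PRC2. The 18 genes of proliferation and E2F response had a median log2 ratio of -0.70 in WT_NP against WT_ES, with 2 at least 2-fold lower (Ccne1, the gene of cyclin E1, at -2.28, and the replication licensing gene Mcm2 at -1.08) and none higher, beside -0.71 for PRC2. In DKO_NP against DKO_ES the medians were -0.32 and -0.41, in DKO_ES against WT_ES 0.11 and -0.05, and in DKO_NP against WT_NP 0.38 and 0.20. As deposited the list medians were -1.63, -0.78, 0.03 and 0.81 in these comparisons. In WT_NP against WT_ES 15 of the 18 were then 2-fold lower, beside 5876 of 14086 genes. In DKO_NP against DKO_ES 3 were, beside 3067 of 14050 genes. The highest genes of the list in WT_NP against WT_ES were Rbl1 and Mki67, a marker of cycling cells, at 0.49 and 0.32, although as deposited they were at -0.41 and -0.64. Whether division rate moved with the PRC2 genes was not tested.

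Among 8930 named genes at or above 5 scaled FPKM on average, Dusp6, Smarcd1 and Dus1l had the profiles most like that of Ezh2 over the 4 libraries, with root mean square differences of 0.0051, 0.017 and 0.017 on the log2 scale after centring. Within PRC2 the nearest profile to Ezh2 was that of Rbbp4 (0.071), that of Eed was Suz12 (0.15), and that of Jarid2 was Mtf2 (0.14). For Ezh1 the nearest genes were Apoe, Cdk18 and Fkbp11 (0.054, 0.055 and 0.065), while no other member came closer than 0.39. These likenesses rest on 4 libraries and are descriptions only.

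Outside the set, the gene that differed most between genotypes among 5 further PRC2 partners was Ezhip, listed in the table as AU022751, which encodes an inhibitor that blocks the catalytic site of PRC2 and is known from germ cells. Ezhip measured 4.14 FPKM in WT_ES against 12.3 in DKO_ES, and 0.931 in WT_NP against 16.1 in DKO_NP. Both knockout libraries were above both wild-type libraries. It was 3.12-fold higher in DKO_ES than in WT_ES (2.52 to 3.89) and 12.8-fold higher in DKO_NP than in WT_NP (9.96 to 16.7), at percentiles 98.5 and 99.6 of all genes in those comparisons.

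Epop, listed as E130012A19Rik, encodes an ES cell partner of PRC2.1 that links it to the Elongin BC complex. It measured 56.9 FPKM in WT_ES against 31.8 in DKO_ES, and 9.80 in WT_NP against 22.96 in DKO_NP. It was 2.95-fold lower in WT_NP than in WT_ES (2.71 to 3.21), and in the knockout its fold between the stages was 0.994 (0.916 to 1.08). Phf1, the other Polycomb-like gene, was low throughout, between 3.31 and 4.54 FPKM. Lcor and Lcorl, whose loci also encode the PALI proteins of PRC2.1, were 3.52-fold (3.03 to 4.11) and 1.88-fold (1.74 to 2.04) higher in WT_NP than in WT_ES after scaling, although the deposited log2 ratio of Lcorl was -0.06. Of these 5 partners, 1 was at least 2-fold higher (Lcor) and 1 lower (Epop) in that comparison, beside 16.2% and 11.3% of all genes. None passed 2-fold in DKO_NP against DKO_ES, beside 11.8% upward and 11.2% downward. Ezhip alone passed in each genotype comparison, upward, beside 2.56% (ES cells) and 4.76% (progenitors) of all genes. As deposited Lcor did not pass, Ezhip passed downward in WT_NP against WT_ES (5876 of 14086 genes), and Epop passed upward in DKO_NP against WT_NP (1382 of 13601 genes).

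The H3K27 demethylases, which remove the PRC2 mark, had their own pattern. Kdm6b measured 9.40 FPKM in WT_ES against 6.00 in DKO_ES, and 12.8 in WT_NP against 7.32 in DKO_NP, so that the wild-type library was the higher at each stage. It was 2.69-fold higher in progenitors than in ES cells of wild type (2.49 to 2.90; 0.41 on the log2 scale as deposited) and 2.37-fold lower in DKO_NP than in WT_NP (2.22 to 2.54), where the deposited log2 ratio of -0.73 did not pass 2-fold. Kdm6a, on the X chromosome, stood between 15.2 and 26.9 FPKM and was within 1.20-fold in all 4 comparisons after scaling, although its deposited log2 ratio was -0.78 in WT_NP against WT_ES. Its Y-linked relative Uty measured 8.19 FPKM in WT_ES against 14.8 in DKO_ES, and 9.88 in WT_NP against 9.49 in DKO_NP.

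**Figure D5:**
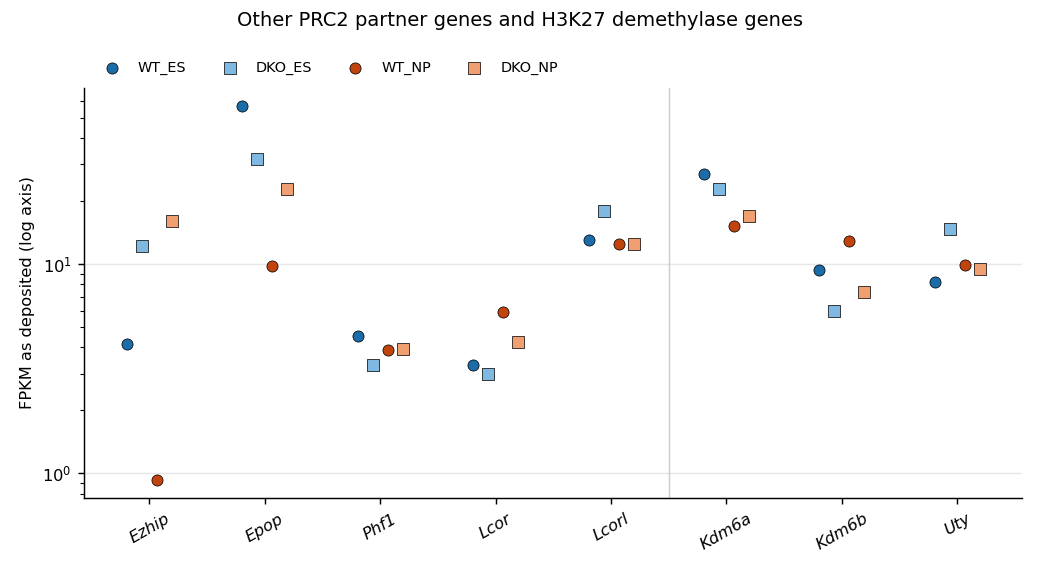
FPKM as deposited (log axis) of 5 further PRC2 partner genes (left of the line) and 3 H3K27 demethylase genes (right), with 1 point per library. Ezhip is at 0.931 FPKM in WT_NP and 16.1 FPKM in DKO_NP, and Epop is highest in WT_ES at 56.9 FPKM.

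A list of 26 developmental regulators known to carry the PRC2 mark in ES cells was low in both ES libraries, with sums of 23.1 FPKM (WT_ES) and 28.2 FPKM (DKO_ES) against 211 FPKM (WT_NP) and 256 FPKM (DKO_NP). In DKO_ES 13.4 FPKM of the sum came from Cdkn2a, the cell cycle inhibitor locus, and 10.5 from Pax6. Only 4 listed genes reached 1 FPKM in WT_ES or DKO_ES. Of these Pax6 alone was 2-fold higher in DKO_ES, beside 2.56% of all genes. Few of the 26 genes reached 1 FPKM in the ES libraries, so a count of listed genes higher in progenitors would be set largely by the 1 FPKM minimum and is not given. Cdkn2a measured 12.2 FPKM in WT_ES and 2.21 in WT_NP. In DKO_NP against WT_NP 23 of the 26 genes reached 1 FPKM in at least 1 of both libraries. Of these, 7 were at least 2-fold higher, led by the proneural gene Neurog1 (log2 ratio 2.11) and Cdkn2a (1.89). Another 7 were at least 2-fold lower, led by Gata4 (-4.64) and Gata6 (-3.27), which are also among the endoderm markers above. Over all genes 4.76% passed 2-fold upward and 7.99% downward. Some listed genes met the minimum only through the library in which they were high, so these counts depend partly on it. The histone mark was not measured, and many of these genes are themselves markers of the cell types in the progenitor cultures.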

How the data were processed

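RNA from 4 mouse cultures was depleted of rRNA and sequenced as single-end reads, per the labels' protocols. The authors deposited 1 table of FPKM; Bowtie, TopHat and the build mm9 are named per the submitters' processing notes, while the program and annotation that made the FPKM were not named in the sources used here. Strand was not stated to be kept. The table holds 23235 symbols after 18 blank rows were left out, and each column carries a sample title.

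The low FPKM values were searched for the step that 1 read is worth. The commonest ratios of low values gave relative denominators of 2.63 (WT_NP), 1.09 (DKO_ES) and 1.82 (DKO_NP) to WT_ES. In 603 of 1568 low genes tried (38.5%) all 4 values came out whole within 0.04 read, and the step of 271 genes with a single GENCODE M21 transcript gave denominators of 13.4 M, 35.3 M, 14.6 M and 24.4 M reads for WT_ES, WT_NP, DKO_ES and DKO_NP. Approximate reads use the median length of a gene's coding transcripts; a wrong length makes an interval too narrow or too wide. A value of 3 reads in 2 kb corresponds to 0.112, 0.0425, 0.103 and 0.0615 FPKM in that order.

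Median scaling used the genes that reached 1 FPKM in each of the libraries. Log2 ratios used a pseudocount of 1 FPKM. No test was run, since each group holds 1 library. Members and lists were chosen with earlier results of these data known. All members are named; from other lists the 2 highest and 2 lowest genes could be named, and all genes of lists with 5 or fewer. Of 111 listed genes, 6 were matched through synonyms in the reference gene tables and 3 were not matched. The alternatives were no scaling, upper-quartile scaling, a pseudocount of 0.1 FPKM, filters of 5 FPKM and none, and Phf1 added to the accessory genes. Close copies were searched with blastn among GENCODE M21 transcripts (95% identity, 300 bases). Ratios were computed in Python 3.11.15 with numpy 2.4.6, pandas 2.3.3 and scipy 1.17.1, and tested on simulated counts.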

Additional observations from a re-analysis of the deposited data

Results flagged for a closer look

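Several genes moved in opposite directions, beyond counting error, under the same contrast in the other genotype or stage; with 1 library per group the difference itself was not tested. Log2 values are after median scaling. Aebp2 was lower in progenitors than in ES cells of wild-type origin (-0.30) and higher in those of knockout origin (0.60), a difference of 0.90, and in the knockout against wild-type contrast it was lower in ES cells (-0.61) and higher in progenitors (0.28). Ezh2 (-0.23 and 0.18, a difference of 0.41), Eed (-0.29 and 0.42, 0.71), Suz12 (-0.05 and 0.23, 0.28), Rbbp4 (-0.15 and 0.04, 0.19) and Jarid2 (-0.05 and 0.33, 0.38) were likewise lower in knockout ES cells and higher in knockout progenitors. The intervals only just excluded no difference for Suz12 in ES cells (0.930 to 0.9997) and Rbbp4 in progenitors (1.0001 to 1.06). They rest on approximate reads, so these 2 reversals are uncertain even for counting error. Ezh1 went the other way (0.24 and -0.83, a difference of -1.07).

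Among the partners, Ezhip was lower in WT_NP than in WT_ES (-0.79) and higher in DKO_NP than in DKO_ES (0.80), a difference of 1.59. Epop was lower in the knockout in ES cells (-0.74) and higher in progenitors (0.75), a difference of 1.49. Lcorl showed the reverse (0.49 and -0.41, a difference of -0.91), as did Uty (0.83 and -0.46, -1.29), which also differed by the same -1.29 between the differentiation contrasts (1.13 in wild type and -0.16 in the knockout). As deposited all of these pairs kept their signs, at -0.05 and -0.003 for the progenitor values of Uty and Lcorl. Under upper-quartile scaling the progenitor value of Rbbp4 was -0.07, so that its directions were no longer opposite.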

How the results depend on the processing

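Without scaling, 9 members were at least 2-fold lower in WT_NP against WT_ES and 5 in DKO_NP against DKO_ES, and the member medians were -1.50 and -0.83; they were -0.13 in DKO_ES against WT_ES and 0.63 in DKO_NP against WT_NP. The difference of differentiation ratios then had a median of 0.83, with 2 members 2-fold higher (Eed and Aebp2) and 0 lower. Upper-quartile scaling took Jarid2 in DKO_NP against DKO_ES to -0.95 and gave medians of -0.52, -0.32 and 0.093 in WT_NP against WT_ES, DKO_NP against DKO_ES and DKO_NP against WT_NP, and 0.24 for the difference. A pseudocount of 0.1 FPKM took Phf19 in WT_NP against WT_ES past 2-fold (-1.21). A filter of 5 FPKM removed Phf19 from WT_NP against WT_ES (median -0.54) and from DKO_NP against WT_NP, which left 0 members 2-fold higher. Phf1 among the accessory genes moved the PRC2.2 share to 58.7% in WT_NP and 61.9% in DKO_NP. Of 50 values of single members, 3 changed sign without scaling (Rbbp7 in WT_NP and in DKO_ES against WT_ES, and Mtf2 in the difference) and 3 under upper-quartile scaling (Rbbp7 in DKO_NP against DKO_ES, and Rbbp4 and Mtf2 in DKO_NP against WT_NP); none of these was past 2-fold. Counts over all genes that moved by more than 1.5 times from those behind the percentages above were, higher and lower, 901 and 5876 as deposited against 2287 and 1593 (WT_NP against WT_ES), 1102 and 3067 against 1656 and 1570 (DKO_NP against DKO_ES), 1382 and 531 against 648 and 1087 (DKO_NP against WT_NP) and 1735 and 709 against 635 and 1297 (the difference). A pseudocount of 0.1 FPKM gave 639 and 334 against 348 and 156 in DKO_ES against WT_ES, and 1081 higher against 635 in the difference. A filter of 5 FPKM gave 1322 higher (WT_NP against WT_ES), 1097 higher (DKO_NP against DKO_ES), 384 and 595 (DKO_NP against WT_NP) and 771 lower (the difference). Upper-quartile scaling put 69.5% of WT_NP against WT_ES calls on the higher side. No paired analysis was possible because each group holds 1 library, and no library could be left out for the same reason. Phf19, with 131 approximate reads in WT_NP, has the widest intervals.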

Other observations

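Genes of the opposing histone marks differed by group. Among 5 H3K36 methyltransferase genes, whose mark hinders PRC2, 3 were at least 2-fold higher in WT_NP than in WT_ES after scaling, beside 16.2% of all genes. They were led by Nsd2, listed as Whsc1, which was 3.18-fold higher (3.03 to 3.33) and in DKO_NP 3.38-fold higher than in DKO_ES (3.23 to 3.54). Nsd2 was also higher as deposited, with log2 ratios of 0.67 and 1.26; it measured 22.8 FPKM in WT_ES against 23.8 in DKO_ES, and 36.8 in WT_NP against 58.3 in DKO_NP. The other 2 were Ash1l and Nsd3, listed as Whsc1l1, at 1.34 and 1.02. As deposited none of the 5 was 2-fold higher in that comparison and Nsd1 was 2-fold lower (-1.04). Over 14086 genes 901 were higher and 5876 lower as deposited. Of 8 measured genes of H3K4 methyltransferase complexes, 3 were at least 2-fold lower in WT_NP than in WT_ES and none higher, beside 11.3% and 16.2% of all genes. The 3 were the shared subunit genes Dpy30, Wdr5 and Ash2l, at log2 ratios of -1.66, -1.52 and -1.22 (Ash2l was named after its value was seen). In DKO_NP against DKO_ES Dpy30 alone was 2-fold lower (-1.33), beside 11.2% of all genes. In both ES and progenitor comparisons of genotype none of the 8 reached 2-fold. Over all genes 2.56% and 4.76% passed it upward there and 1.15% and 7.99% downward. As deposited 4 of the 8 were 2-fold lower in each differentiation comparison, beside 5876 of 14086 genes in wild type and 3067 of 14050 in the knockout. Ash2l was then 2-fold higher in DKO_NP than in WT_NP, beside 1382 of 13601 genes.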
